A study of Homo sapiens and Homo sapiens
Mus musculus and Mus musculus with 9 samples.

Results

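The genes described here encode the machinery that brings proteins into mitochondria. They were chosen by name from the deposited table: protein-coding rows whose symbol starts with TIMM or TOMM followed by a digit, together with SAMM50, MTX1, MTX2, GRPEL1, PAM16, DNAJC19, PMPCA, PMPCB, CHCHD4 and GFER. This gave 35 genes out of 19939 protein-coding genes and 41713 genes of all kinds. The study asked how the human prostate cancer line C4-2B, which can grow in bone, changes when it is mixed with mouse MC3T3-E1 cells, a pre-osteoblast line. C4-2B cells grown alone (3 libraries) and C4-2B cells in mixed co-culture with MC3T3-E1 at a ratio of 1 to 30 (3 libraries) were sequenced, as were MC3T3-E1 cells alone (3 libraries, not used here). The labels call all cells wild type, kept in alpha-MEM with fetal bovine serum, and name no drug. By the methods of the study the C4-2B cells put into co-culture carried a GFP label, which the labels do not mention. Where the study states that the experiments of the figure with the sequencing were repeated independently, it excepts the sequencing. It does not say whether the libraries of a group came from separate cultures.

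Nearly all mitochondrial proteins are made in the cytosol and must cross the mitochondrial membranes. The TOM complex is the entry gate of the outer membrane, the SAM complex folds barrel proteins into that membrane, and small TIM chaperones carry hydrophobic cargo through the space between the membranes. The TIM22 complex inserts carriers into the inner membrane, the TIM23 complex and its ATP-driven motor pull proteins with a targeting signal into the matrix, and the processing peptidase cuts the signal off.

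Because co-culture libraries hold human and mouse RNA together, the reads were handled by 3 pipelines that keep human sequence in different ways. Xenome sorts reads by short sequence words before alignment, XenofilteR compares the alignments of each read to both genomes, and Kallisto assigns reads to a joined set of human and mouse transcripts. For each gene and pipeline the table gives the authors' mean normalised count over the libraries of C4-2B alone and of the co-culture together. A pooled mean has no replicate spread, so the values below carry no SD and no test was made on them. The change of these genes between C4-2B alone and co-culture was not analysed here, since the table gives it only as the authors' own comparison. Normalised counts are divided by a size factor, which follows the counts of the genes in each library. They show neither the number of human cells nor the RNA per cell, which bulk RNA cannot tell apart.

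The label of the human cells was checked with fixed marker genes. KLK3, HOXB13 and FOLH1, which mark prostate cells, had Xenome means between 10532 and 51038 normalised counts. Of the 6 osteoblast markers read as human genes, SP7, BGLAP and IBSP were between 0.984 and 3.78 and RUNX2 was at 411. COL1A1 and COL1A2, the chains of type I collagen, were at 3384 and 45.0 under Xenome, at 4557 and 264 under XenofilteR and at 2471 and 222 under Kallisto. The part that mouse reads have in the values of the import genes was not tested.

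Import genes were well covered as a group. Under Xenome 34 of the 35 had a mean, 33 were at 50 or more and 28 were at 1000 or more. Their median was 2776 normalised counts under Xenome, 2771 under XenofilteR and 2896 under Kallisto. Per kb of transcript the Xenome median was 1620, against 153 over all protein-coding genes with a value, 1939 over 78 mitochondrial ribosomal proteins and 546 over 48 SLC25 carriers. On the scale of normalised counts, which does not allow for length, 31 of the 34 lay at or above the median of protein-coding genes, a level that 50.0% of those genes reach by definition. The 3 below it were TOMM20L, TIMM23B and PAM16. A further list of 18 genes that assist import without being counted among the 35, such as HSPA9, the matrix chaperone of the motor, and MIPEP, a second peptidase of the matrix, had a median of 1521 per kb under Xenome over the 17 with a value.

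**Figure D1:**
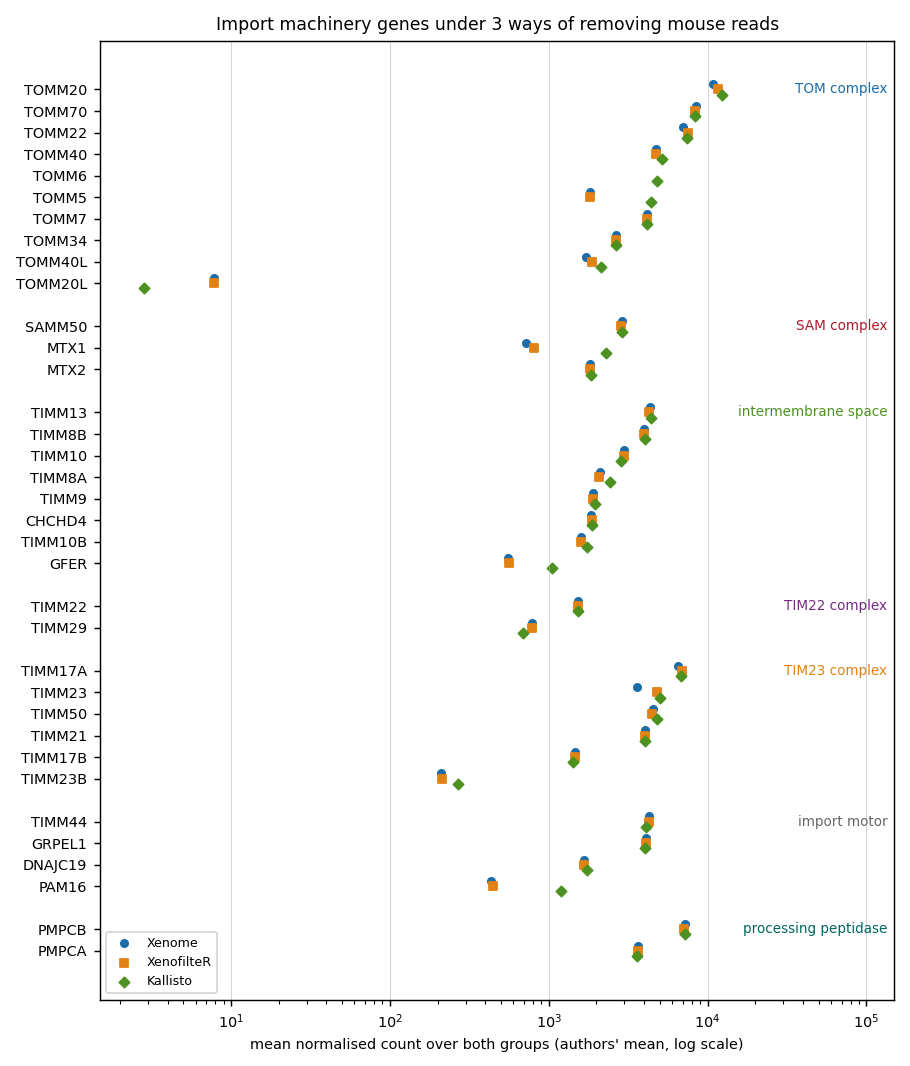
Mean normalised count (log axis) of each import gene over C4-2B alone and co-culture together, under Xenome (circles), XenofilteR (squares) and Kallisto (diamonds), grouped by machine. For most genes the 3 symbols fall together, TOMM5, MTX1, GFER and PAM16 have a Kallisto symbol far to the right, and TOMM6 has a Kallisto symbol only.

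In normalised counts, the receptors and the channel of the TOM complex were among the most abundant members. Per kb of coding sequence under Xenome, TOMM40 (4385) and TOMM70 (4618) were near the median of the members (4502). TOMM7, a small subunit that tunes the stability of the complex, had the highest level per kb of transcript of all members, 9572 under Xenome, 9554 under XenofilteR and 9556 under Kallisto. Per kb of coding sequence it was first under Xenome only (25177), with TOMM20 first under XenofilteR (26805) and TOMM5 under Kallisto (28891). TOMM22, the central receptor, and TOMM20, the receptor for targeting signals, followed in this complex at 3453 and 3276 per kb under Xenome, where TOMM6 has no value. Under Kallisto TOMM6 (8555 per kb) and TOMM5 (6261 per kb) came after TOMM7, ahead of TOMM20 (3735 per kb) and TOMM22 (3670 per kb). TOMM20 also had the highest normalised count, 10754 under Xenome, 11660 under XenofilteR and 12261 under Kallisto. TOMM40, the barrel that forms the pore, was at 2686 per kb and TOMM70, the receptor for carrier precursors, at 2055 per kb under Xenome. TOMM34, a cytosolic co-chaperone that binds precursors, was lower, at 1353 per kb. TOMM7, TOMM20, TOMM22, TOMM34, TOMM40 and TOMM70 had Kallisto means from 0.974 to 1.12 times those of Xenome after centring on the median ratio of protein-coding genes.

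2 members of this complex have rarer paralogs, and both paralogs were lower, TOMM20L by far. TOMM40L, the second pore protein, had 1725 normalised counts under Xenome, 1867 under XenofilteR and 2125 under Kallisto. Per kb of transcript, TOMM40 was 4.35 times TOMM40L under Xenome and 3.84 times under Kallisto, and per kb of coding sequence 2.35 and 2.07 times. TOMM20L was the lowest member, at 7.88 normalised counts under Xenome, 7.84 under XenofilteR and 2.85 under Kallisto. Its transcript overlaps that of TIMM9, which lies on the other strand of chromosome 14 (174 bases, 28.7% of the TOMM20L transcript), and TIMM9 had 1915 normalised counts, so reads of the pair could be mixed where strand was not used in counting.

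Since a library adds whole reads to a mean, low means could be split into reads per library. All read numbers were searched for means under 20, such as that of TOMM20L. For higher means only values within about 2 times of the mean in each library were searched. The 6 libraries solved in this way carry no label, so no group is assigned to them. They are numbered by depth, from the largest size factor down. Depth here means the reads counted for human genes, not all reads sequenced from a library. In Xenome, TOMM20L had 55, 47, 62, 7, 0 and 0 reads in libraries 1 to 6, which makes 171 reads in all. In normalised counts these were 9.28 (95% Poisson interval 6.99 to 12.1), 8.84 (6.50 to 11.8), 12.8 (9.78 to 16.3) and 16.4 (6.60 to 33.8). The 2 libraries without a read allow up to 25.5 and 33.9 normalised counts, which is above the value of each of the other 4. The intervals cover counting error only, and the intervals of all 6 libraries overlap. XenofilteR gave 170 reads, with 1 read fewer in the second library.

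**Figure D2:**
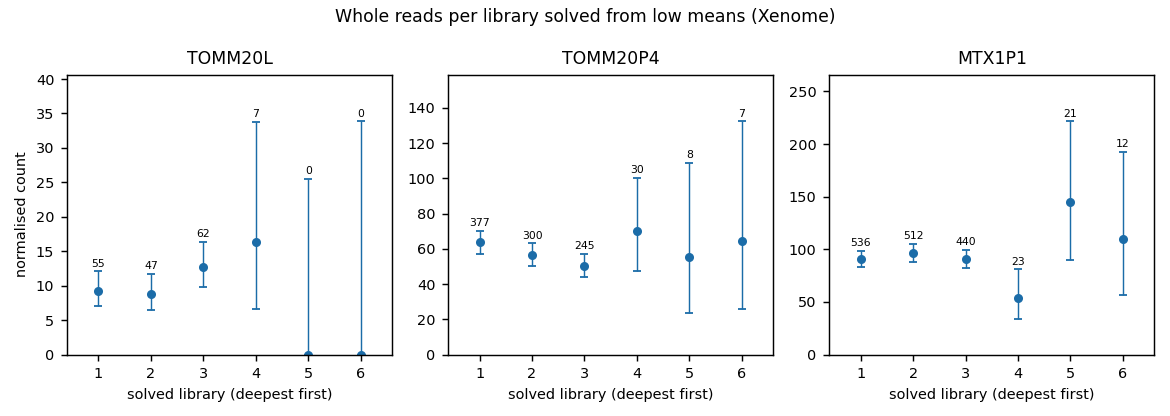
Normalised count of TOMM20L and of the pseudogenes TOMM20P4 and MTX1P1 in each of 6 unlabelled libraries, solved from the Xenome means. Points are the estimates, bars the 95% Poisson intervals, and the numbers over the bars are whole reads. TOMM20L had 55 reads in library 1 and 0 in libraries 5 and 6, where a single read stands for 6.91 and 9.18 normalised counts.

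The same solution shows how unequal the libraries behind the Xenome means are in reads counted for human genes. It does not give the total reads of a library, and the part of the mouse cells in the inequality was not tested. The size factors of the 6 libraries were 5.93, 5.31, 4.86, 0.427, 0.145 and 0.109 under Xenome, so that 1 read counted as 0.169 normalised counts in the deepest library and as 9.18 in the shallowest. A gene at the mean of PAM16 stands on about 2587 reads in the deepest library and on 47.5 in the shallowest, and one at the mean of TOMM20 on 63728 and 1171.

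In the SAM complex, SAMM50, the barrel that folds other barrels, was at 1704 per kb under Xenome and 1711 under Kallisto. MTX2, a partner on the cytosolic side, was at 1353 and 1382 per kb. MTX1, the partner of MTX2, had the highest Kallisto to Xenome ratio of the members compared. Its mean was 715 normalised counts under Xenome, 808 under XenofilteR and 2300 under Kallisto, which is 3.15 times the Xenome value after centring. Per kb MTX1 stood at 0.323 times MTX2 under Xenome and at 1.02 times MTX2 under Kallisto, so the ratio of the 2 metaxins differed between pipelines. Per kb of coding sequence the ratio was 0.223 and 0.701.

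MTX1 lies at chr1:155208699-155213824 (GRCh38, plus strand), and a pseudogene copy, MTX1P1, lies close by at chr1:155230975-155234325. Of 1587 windows of 50 bases in the MTX1 transcript, 451 (28.4%) occur again without a mismatch at MTX1P1. The longest coding stretch that both places share is shown because a read within it fits both. It runs to the last coding base before the stop codon, it comes from GRCh38 chr1:155213378-155213695, plus strand, with the intron spliced out, and its 214 capitals are identical at MTX1P1.
MTX1: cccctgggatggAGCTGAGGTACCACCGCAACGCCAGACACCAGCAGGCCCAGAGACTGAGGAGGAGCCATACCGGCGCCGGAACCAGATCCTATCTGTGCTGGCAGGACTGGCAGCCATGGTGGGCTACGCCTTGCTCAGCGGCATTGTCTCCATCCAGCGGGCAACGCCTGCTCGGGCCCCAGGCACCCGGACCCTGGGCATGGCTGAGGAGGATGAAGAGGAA
A further 20.1% of the MTX1 transcript lies in exons of other genes on the other strand, THBS3 with 146 bases and the lncRNA ENSG00000236263 with 180 bases among them. MTX1P1 itself had 97.7 normalised counts under Xenome and 98.7 under XenofilteR, and no Kallisto value. Its 1544 solved Xenome reads fell as 536, 512, 440, 23, 21 and 12 over the 6 libraries, which is 90.4, 96.3, 90.5, 53.9, 145 and 110 normalised counts. The search allowed only values within about 2 times of its mean, so how much these libraries differ cannot be read from the solution.

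The chaperones of the intermembrane space spanned a wide range. TIMM8B and TIMM10 had 5089 and 4449 per kb under Xenome, TIMM13 had 2595, and TIMM8A and TIMM9 had 1733 and 1530. TIMM9 and TIMM10 form the main chaperone ring that carries inner membrane proteins, and TIMM8A and TIMM13 form a second ring with fewer known cargoes. TIMM10B, which docks the ring at the TIM22 complex, was lower at 573 per kb. Among paralogs TIMM8A was at 0.341 times TIMM8B and TIMM10 at 7.76 times TIMM10B per kb under Xenome. Kallisto gave 0.389 and 6.89 for the same pairs. Per kb of coding sequence the Xenome ratios were 0.452 and 2.13, since the TIMM10B transcript (2788 bases) is much longer than that of TIMM10 (668 bases) while their coding lengths are close (309 and 270 bases). The order within each pair was kept.

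CHCHD4 and GFER form the relay that puts disulfide bonds into small proteins of this space: CHCHD4 oxidises the incoming protein and GFER reoxidises CHCHD4. CHCHD4 had 1297 per kb under Xenome and 1308 under Kallisto. GFER had 559 normalised counts under Xenome, 560 under XenofilteR and 1057 under Kallisto, 1.86 times the Xenome value after centring. Of the GFER transcript 44.6% (1055 of 2365 bases) lies in exons of a lncRNA on the other strand, ENSG00000261790, which had 29.8 normalised counts under Xenome. TIMM8B shares as much, 45.0% of its transcript with NKAPD1 on the other strand, and its Kallisto mean was 0.996 times that of Xenome. Of the other members with at least 20% of the transcript shared on the other strand and a mean of at least 50, MTX1 (20.1%) was at 3.15 times and TOMM40L (23.8%) at 1.21 times, while TIMM9 (30.0%), PMPCB (20.8%) and TIMM13 (20.1%) were at 1.01, 0.985 and 1.01 times. The ratios of these members ranged from 0.985 to 3.15, and MTX1 also has 33.9% of its windows of 50 bases repeated elsewhere. The part of the overlap in these ratios was not tested.

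The members of the TIM22 complex were near the bottom per kb of transcript. TIMM22, its channel, had 479 per kb under Xenome and 482 under Kallisto, and TIMM29, a subunit needed for its assembly, had 583 and 512. Per kb of coding sequence the order turned, with TIMM22 at 2617 and TIMM29 at 1007 under Xenome. TIMM29 had the lowest Kallisto to Xenome ratio of the 33 members compared, 0.860. Both lay within 2% of Xenome under XenofilteR.

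In the TIM23 complex, TIMM17A led with 3974 per kb under Xenome, followed by TIMM23 with 3018, TIMM17B with 1786, TIMM21 with 1314 and TIMM50 with 897. Under Kallisto TIMM23 was first with 4195 per kb, ahead of TIMM17A with 4135. TIMM23 and TIMM17A or TIMM17B form the core of the translocase, TIMM50 is the receptor that meets the precursor, and TIMM21 links the complex to TOM. TIMM17A was 2.23 times TIMM17B per kb of transcript under Xenome and 2.37 times under Kallisto, and 4.51 and 4.81 times per kb of coding sequence. TIMM23B, a near copy of TIMM23, stood at 83.9 per kb, and TIMM23 was 36.0 times as high under Xenome, 47.6 times under XenofilteR and 39.1 times under Kallisto, while per kb of coding sequence it was 15.4 times as high under Xenome. The coding sequences of TIMM23 and TIMM23B are 86.3% identical over their alignment and share a run of 109 bases, while the other 7 paralog pairs were between 36.1% and 68.3% with no run over 23 bases. TIMM23B also has 63.9% of its windows of 50 bases elsewhere in the genome and shares 31.4% of its transcript with TIMM23B-AGAP6 on the same strand, so its value is uncertain.

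TIMM23 was the member on which the 2 alignment pipelines parted most. It had 3591 normalised counts under Xenome, 4811 under XenofilteR and 4992 under Kallisto. XenofilteR was thus 1.34 times Xenome, a ratio that 25 of 11647 protein-coding genes (0.215%) reach or exceed. Next came MTX1 at 1.13, TOMM20 at 1.08, TOMM40L at 1.08, TOMM22 at 1.07 and TIMM17A at 1.05, and 27 of the 34 members with a value lay within 2% of Xenome. None of the 33 members passed 1.5-fold between XenofilteR and Xenome, and 0.146% of protein-coding genes did.

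Stretches of human coding sequence that occur unchanged in a mouse transcript are shown because a read that lies wholly within one fits both species. The longest of any member was in TIMM23, with 81 bases identical in the mouse processed pseudogenes Gm16209 and Gm7493. The longest run shared with mouse Timm23 itself was 57 bases. TOMM40L shared 74 bases with mouse Tomm40l, TIMM23B shared 61 with the same pseudogenes as TIMM23, and TOMM20 shared 56 with Tomm20 and with the pseudogenes Gm14494 and AC157594.1. The sequences come from GRCh38 chr10:45982889-45988740 (TIMM23, plus strand), chr10:49952512-49958373 (TIMM23B, plus strand), chr1:161227729-161227972 (TOMM40L, plus strand) and chr1:235122339-235128640 (TOMM20, minus strand), with introns spliced out and the bases identical to mouse in capitals.
TIMM23: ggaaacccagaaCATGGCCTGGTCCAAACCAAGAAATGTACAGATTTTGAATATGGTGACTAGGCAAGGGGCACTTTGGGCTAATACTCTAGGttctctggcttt
TIMM23B: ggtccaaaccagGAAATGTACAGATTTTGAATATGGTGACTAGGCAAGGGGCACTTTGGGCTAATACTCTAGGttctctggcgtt
TOMM40L: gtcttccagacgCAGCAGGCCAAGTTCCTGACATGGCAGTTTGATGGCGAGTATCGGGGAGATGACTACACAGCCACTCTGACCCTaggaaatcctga
TOMM20: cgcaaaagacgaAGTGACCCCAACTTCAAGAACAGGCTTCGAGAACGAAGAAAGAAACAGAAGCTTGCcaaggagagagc

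The ratios were also set beside the longest run shared with mouse, here over the whole transcript and not the coding sequence alone. In TIMM10 this run lies at bases 597 to 653 of the 668 bases of the transcript. TIMM10 shared 57 bases and had the largest part of its 31-base sequences in mouse transcripts of any member, 5.83% against 4.57% in TIMM23, and its XenofilteR mean was 1.00 times that of Xenome. TIMM23B, with 61 bases, was at 1.01, and TOMM70, with 56 bases, was at 0.997. TOMM22, with a longest run of 35 bases, was at 1.07. A rank correlation with the XenofilteR to Xenome ratio was computed for the part of 31-base sequences in mouse transcripts, not for the longest run. It was 0.192 over the 33 members and -0.0836 over 11571 protein-coding genes. These are descriptions across genes, which share libraries and are no replicates. Whether shared mouse sequence set the gaps between XenofilteR and Xenome was not tested.

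**Figure D3:**
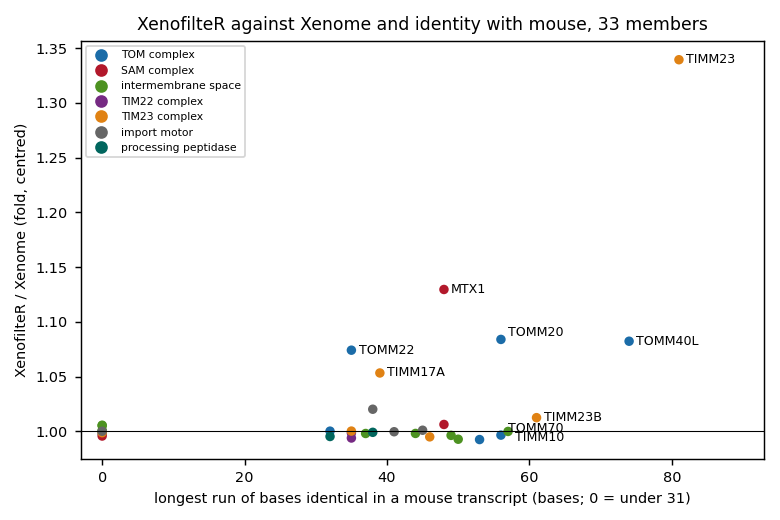
Ratio of the XenofilteR to the Xenome mean (centred) of 33 import genes against the longest run of bases that occurs in a mouse transcript. Each point is a gene, coloured by machine, and genes with no shared run of 31 bases stand at 0. TIMM23 stands alone at 81 bases and 1.34, and TIMM10, TIMM23B and TOMM70 lie near 1 at 56 to 61 bases.

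In the import motor, TIMM44, which holds the motor at the channel, had 2340 per kb under Xenome. GRPEL1, the nucleotide exchange factor of HSPA9, had 1536, DNAJC19, a J protein that drives HSPA9, had 1186, and PAM16, the inactive J-like partner that holds the J protein in check, had 819. PAM16 was at 437 normalised counts under Xenome, 445 under XenofilteR and 1196 under Kallisto, 2.69 times the Xenome value after centring. Per kb of transcript, Kallisto put PAM16 at 2243, above TIMM44 at 2220, GRPEL1 at 1528 and DNAJC19 at 1239. Per kb of coding sequence PAM16 stood at 3188 under Kallisto, above TIMM44 at 3017 and below GRPEL1 at 6228 and DNAJC19 at 5040. Of the 2 subunits of the processing peptidase, PMPCB, the catalytic one, had 1837 per kb of transcript and PMPCA, which binds the substrate, 1746 under Xenome. Per kb of coding sequence they were at 4895 and 2313, so their ratio depended on the length used.

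**Figure D4:**
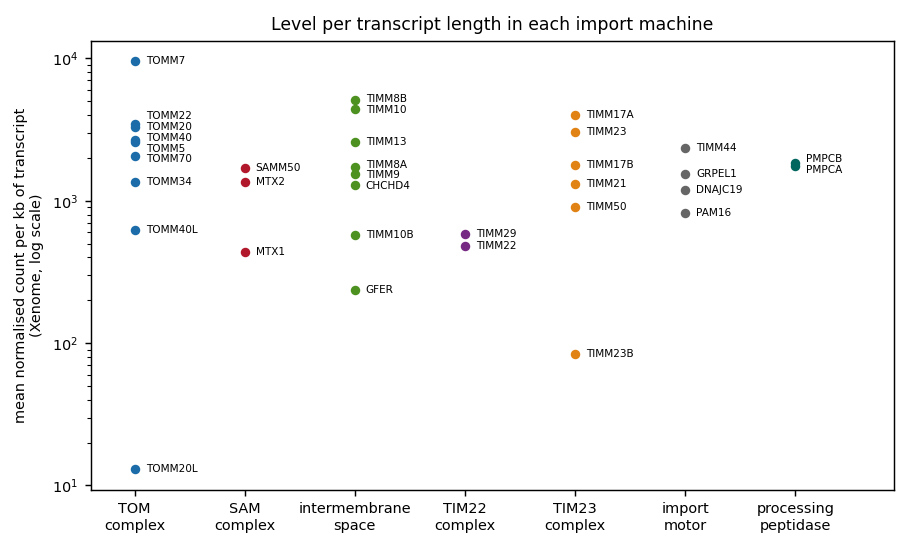
Mean normalised count per kb of transcript (Xenome, log axis) of 34 import genes by machine. TOMM7 is the highest at 9572, the small TIM chaperones TIMM8B and TIMM10 and the core subunit TIMM17A follow, and TIMM23B at 83.9 and TOMM20L at 13.0 lie far below the rest.

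4 of the 33 members with a mean of at least 50 in both pipelines passed 1.5-fold between Kallisto and Xenome, all of them higher under Kallisto: MTX1, PAM16, TOMM5 and GFER. That is 12.1%, and 10.1% of 11580 protein-coding genes passed this fold in either direction, so the share of members was close to the background. In the other lists 9 of 77 mitochondrial ribosomal proteins, 6 of 41 SLC25 carriers and none of 16 further import genes passed it. Kallisto was within 10% of Xenome for 23 of the 34 members with a value.

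TOMM5, a small subunit that steadies the TOM pore, had 1834 normalised counts under Xenome and under XenofilteR and 4420 under Kallisto, 2.36 times the Xenome value after centring. It lies at chr9:37582646-37592604, minus strand, and 81.9% of its transcript lies in exons of ENSG00000255872 and ENSG00000256966, 2 protein-coding genes on the same strand that are wider than TOMM5. These had 1.502 and 3.71 normalised counts under Xenome and 32.0 and 2.67 under Kallisto. PAM16, at chr16:4331549-4355607 on the minus strand, shares 83.1% of its transcript with CORO7-PAM16, a read-through gene that had 0.134 normalised counts under Xenome and 9.14 under Kallisto. In both pairs nearly all counts stood on the import gene under each pipeline. The coding sequence of TOMM5 (153 bases without the stop codon, GRCh38 chr9:37588901-37592532) and the first 150 coding bases of PAM16 (GRCh38 chr16:4341443-4351234) are shown because reads from the capitals fall in exons of 2 or more genes. Introns are spliced out, both genes are read on the minus strand, and the capitals are 90 of the 153 bases of TOMM5 and 147 of the 150 bases shown of PAM16. Over its whole coding sequence 99.2% of PAM16 lies in exons of another gene on the same strand.
TOMM5: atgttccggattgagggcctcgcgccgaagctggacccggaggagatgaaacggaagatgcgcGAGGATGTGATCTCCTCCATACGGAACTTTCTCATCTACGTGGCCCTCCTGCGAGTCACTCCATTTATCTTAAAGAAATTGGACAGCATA
PAM16: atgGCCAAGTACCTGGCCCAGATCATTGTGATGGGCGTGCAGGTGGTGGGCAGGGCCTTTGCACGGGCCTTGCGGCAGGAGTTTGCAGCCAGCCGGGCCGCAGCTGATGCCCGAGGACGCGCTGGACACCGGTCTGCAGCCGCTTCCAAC

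TOMM6, a further small subunit of the TOM complex, had all of its 565 bases in exons of ENSG00000124593, a protein-coding gene of the same strand on chromosome 6. It was listed with no mean under Xenome and XenofilteR and with 4834 normalised counts under Kallisto, 8555 per kb. ENSG00000124593 had 183 normalised counts under Xenome, 184 under XenofilteR and 671 under Kallisto.

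The ratio of Kallisto to Xenome was also read over all protein-coding genes by these features. Of 335 genes with at least 50% of their transcript in same-strand exons of another gene, 83.3% were past 1.5-fold higher under Kallisto, with a median ratio of 3.48. Of 621 genes with under 1% same-strand sharing but at least 25% on the other strand the share was 29.3% (median ratio 1.28), and of 420 genes with at least 25% of their 50-base windows repeated and no same-strand sharing to speak of (under 1%) it was 47.1% (median ratio 1.46). Of 3106 genes with under 1% of each it was 2.45% (median ratio 0.981). The classes held 2, 3, 2 and 5 of the 33 members compared. Among members with repeated windows, MTX1 (33.9%) was at 3.15 times, TOMM40 (28.1%) at 1.07 times and TIMM23B (63.9%) at 1.26 times. Whether the overlaps set the gaps of the 4 members was not tested.

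**Figure D5:**
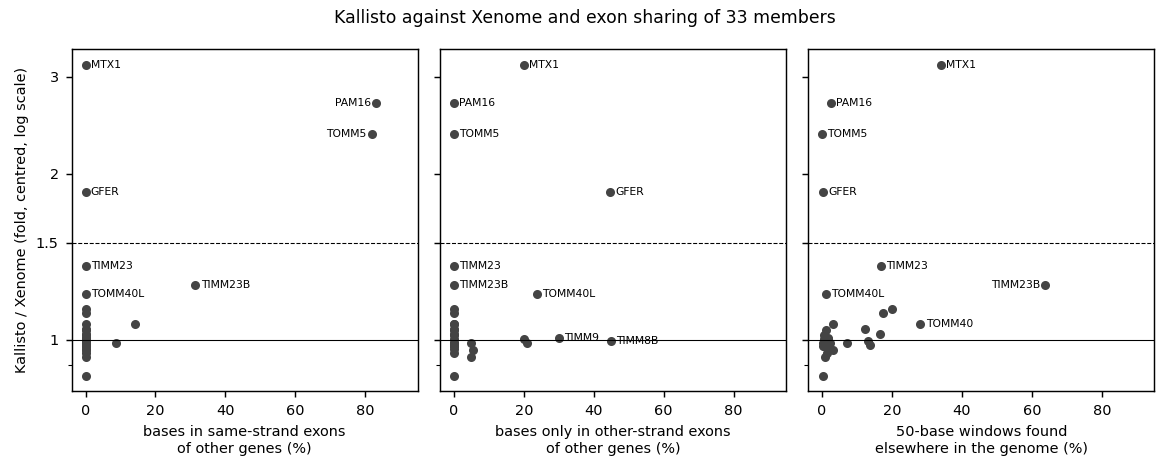
Ratio of the Kallisto to the Xenome mean (centred, log axis) of 33 import genes against the part of the transcript in same-strand exons of other genes (left), in other-strand exons only (middle) and in 50-base windows that recur in the genome (right). The solid line marks a ratio of 1 and the dashed line 1.5. PAM16 and TOMM5 stand out in the left panel, GFER in the middle panel beside TIMM8B at a ratio near 1, and MTX1 in the right panel, where TIMM23B and TOMM40 have ratios of 1.26 and 1.07.

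Promoters of the members were searched on both strands for 4 short motifs in RefSeq sequence (GRCh38.p14) from 250 bases before to 50 bases after the start, which was found for 32 members. The ETS motif CCGGAAG was present in 13 (40.6%) and in 14.4% of 15068 protein-coding promoters, and the NRF1 motif (GCGCA, any base, GCGC) in 7 (21.9%) and in 8.56%. NRF1 is a regulator of nuclear genes for mitochondria. The letters CCAAT were in 11 (34.4%) against 36.6%, and TATAAA in none against 9.59%. TOMM20, TOMM34 and TIMM29 held both the NRF1 and the ETS letters. These are matches of letters and no measurement of binding.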

How the data were processed

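RNA was sequenced as 50-base read pairs from stranded mRNA libraries. In the Xenome and XenofilteR pipelines the authors aligned reads to GRCh38 with HISAT2 and counted them per gene with FeatureCounts, and in Kallisto they used joined human and mouse GENCODE transcripts (per the labels GRCh38 and GRCm38). Tool versions, the strand setting and the treatment of reads that fit several genes are not given in the sources used here. FeatureCounts can leave out reads that fall in exons of several genes or map to several places, while Kallisto shares them out. The deposited table holds, per pipeline, the authors' DESeq2 mean normalised count over both groups and their log2 fold changes, standard errors, test statistics and p-values. Only the 3 mean columns were used, because the others are the authors' own comparison. Of 41734 rows, 21 repeated a gene and were dropped.

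Ratios between pipelines were centred on the median over protein-coding genes with a mean of at least 50 in both, and a 1.5-fold ratio counted as a difference. Transcript lengths, exon overlaps, windows of 50 bases found elsewhere in the genome and sequences of 31 bases shared with mouse came from GENCODE 44 canonical transcripts, the GRCh38 genome and GENCODE M21. The value of 1 read in each library was taken from the most frequent low means. All 15274 Xenome genes with a mean under 3 had 1 solution in whole reads. On simulated data 129 of 132 means had a single solution, each of them right. The simulated reads varied little between libraries around a common mean. They therefore do not test higher means whose libraries differ by more than the search allows. Every member is named or counted, and those at the ends of each machine, past the fold or with a paralog are given in full. The members and lists were chosen with earlier results of these data known. Some marker genes are not reported here. Python 3.11.15, pandas 2.3.3, numba 0.67.0 and biopython 1.88 were used.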

Additional observations from a re-analysis of the deposited data

How the results depend on the processing

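The median mean of the members was 2776 normalised counts under Xenome, 2770.7 under XenofilteR and 2895.7 under Kallisto. The number of members at or above the protein-coding median was 31 under Xenome and XenofilteR, 28 with genes of a mean of at least 10 only and 33 under Kallisto. The number past the fold between Kallisto and Xenome was 4, also without centring and with centring on all genes, 3 at a fold of 2, and 5 with no filter, when TOMM20L at 0.355 times joined. The median level per length was 1620 per kb of transcript, 4502 per kb of coding sequence and 243.6 per kb of gene span. The most abundant gene of a machine stayed first in 4 of 7 machines by coding length and in 1 of 7 by gene span, so the order within machines depends on the length used. A search window 1.5 times as wide solved 17 genes in whole reads in place of 15. No paired analysis was possible because the columns used carry no replicate and the results come from no test. Pooled means do not let a library be left out, and for the few genes solved in whole reads, whose values are given per library, this was not done. The low mean of TOMM20L and the uneven number of human reads per library limit what the means can show. The values of TIMM23B, MTX1, PAM16, GFER, TOMM5 and TOMM6 stand beside shared or repeated sequence whose part in them was not tested.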

Other observations

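Processed pseudogenes of the import genes gave further values per unlabelled library. TOMM20P4, a copy of TOMM20 on chromosome X, had 377, 300, 245, 30, 8 and 7 Xenome reads in solved libraries 1 to 6, or 63.6, 56.5, 50.4, 70.3, 55.3 and 64.3 normalised counts. DNAJC19P9, a copy of DNAJC19 on chromosome 14, had 296, 297, 217, 26, 3 and 6 XenofilteR reads, or 49.9, 55.8, 44.5, 61.0, 20.8 and 55.2 normalised counts. In library 5 the 20.8 of DNAJC19P9 lies a little more than 2 times below its XenofilteR mean of 47.9. Both genes were searched only within about 2 times of the mean in each library, so the spread between libraries cannot be read from them. Under Xenome DNAJC19P9 had no solution in this range and 1 in a range 1.5 times as wide. It holds 216 of the 1367 windows of 50 bases of DNAJC19 unchanged. TIMM8BP2 on chromosome X and TIMM9P2 on chromosome 21 were far lower, at Xenome means of 3.61 and 4.99.

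A neighbour also parted between pipelines. DNAJC2, which shares 813 bases with PMPCB on the other strand of chromosome 7, had 3635 normalised counts under Xenome, 4453 under XenofilteR and 4810 under Kallisto. PMPCB had 7181, 7150 and 7214. The cause was not tested.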
